A study of Homo sapiens with 12 samples.

Results

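A stop codon is the last codon of an open reading frame. A peak over one mostly holds both the end of the coding sequence (CDS) and the start of the 3′ untranslated region (UTR). Of 18128 deposited peaks of Cas9 eCLIP, 480 (2.65%, 95% Wilson interval 2.42 to 2.89) overlapped at least 1 base of the stop codon of a protein-coding gene on the same strand. The stop codon was taken as the 3 transcript bases after the last annotated CDS base of the Ensembl canonical transcript in GENCODE version 44, on genome build hg38. Beyond the enrichment limits that every deposited peak had passed, enrichment, sequence and structure were not part of this rule. The 480 peaks covered 300 different stop codons.

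HEK 293T cells, a line of human embryonic kidney origin with the SV40 large T antigen, expressed dSpCas9, a Streptococcus pyogenes Cas9 without nuclease activity that lay mainly in the cytoplasm, and the experiment asked which of their RNAs it contacts. In eCLIP, UV light links proteins to the RNA they touch, an antibody recovers one protein with its RNA, and the RNA is sequenced. The 12 libraries fell into 6 groups of 2 replicates: V5-dSpCas9 V5 IP, V5-dSpCas9 size-matched input, empty vector V5 IP, 3xFLAG-dSpCas9 FLAG IP, 3xFLAG-dSpCas9 size-matched input and empty vector FLAG IP. All cells received plasmid by transfection, were exposed 2 times to 400 mJ/cm2 of UV light, and gave RNA from the membrane region from 115 kDa upward. Size-matched input is RNA from the same membrane region taken without an antibody, and the empty vector groups were cells without dSpCas9 that went through the same IP. The dSpCas9 was overexpressed from a plasmid in 1 cell line and without a guide RNA, which limits all groups as a model of Cas9 at other levels or in other cells. More cells that held the protein and more bound RNA per cell cannot be told apart.

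Each of the 4 deposited lists compares the 2 IP libraries of 1 antibody with 1 kind of control: V5 over input (6605 peaks), FLAG over input (6554), V5 over vector (3005) and FLAG over vector (1964). The measurement for a peak is the log2 of the geometric mean over both replicates of IP reads over control reads, called log2 enrichment here, with the −log10 of a p-value that has a ceiling of 400. No list holds a peak under a log2 enrichment of 3.00 or a −log10 p of 3.01, so a stop codon that is not in a list may still have been enriched below these limits. The files hold 1 value per peak and no read counts: the depth of the libraries is unknown, no replicate error exists for a single peak, and no test across samples was possible. Intervals printed for shares are 95% Wilson intervals and cover counting error only. The 2 lists of an antibody share their IP libraries. Where peaks of the 4 lists are pooled, a site in several lists is counted several times, so those intervals are too narrow. Peak lists hold no expression levels, so the cell line could not be checked against marker genes.

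At a stop codon the ribosome halts, release factors read the codon in place of a tRNA, and the finished protein is let go. The surrounding mRNA thus changes its state within a few bases: ribosomes travel over the CDS side, whereas the 3′ UTR side is left free for RNA-binding proteins and microRNAs and can keep a folded structure. The 3 stop codons are UAA, UAG and UGA (written with T here, as in the genome), and the base that follows affects how efficiently each of them ends translation. SpCas9 normally binds a guide RNA through a hairpin that carries a GU-containing loop next to a stem, a feature that the study modelled as the GU-loop:5nt-stem.

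Of the 300 stop codons, 19 were covered by a peak in all 4 lists. The sequences of 12 of them, those with the highest mean log2 enrichment over input in both antibodies, place the peaks on the mRNA. Each runs 5′ to 3′ along the mRNA and holds 12 CDS bases, the stop codon in capitals and 15 bases of 3′ UTR (hg38 letters).
H2AC11, chr6:27133450-27133479, plus strand: gcgaagggcaagTAActatctgtactagtt
POLG, chr15:89316736-89316765, minus strand: cagcctggaccaTAGcactgcctggaggct
GDF15, chr19:18388921-18388950, plus strand: tgccactgcataTGAgcagtcctggtcctt
EEF1G, chr11:62559664-62559693, minus strand: aagatcttcaagTGAacatctcttgccatc
RAB3GAP1, chr2:135168767-135168796, plus strand: acttccttcttcTGAttcttctagcattac
NARF, chr17:82488143-82488172, plus strand: gacatcaagtggTGAagtcaggccagggcc
HMOX1, chr22:35393584-35393613, plus strand: ctttatgccatgTGAatgcaggcatgctgg
SLC25A25, chr9:128107430-128107459, plus strand: gtgcagtcgcggTGAcggggggagggccgc
TMEM18, chr2:669565-669594, minus strand: aggaaagaagacTGAggggcagcagctgct
UCK1, chr9:131525025-131525054, minus strand: agcagaccccacTGAggggctgccgagcct
DCTN3, chr9:34613767-34613796, minus strand: ccagcagaggagTGAtagctgctccccatc
CCNI, chr4:77048204-77048233, minus strand: gtttctgtcatgTAGtttcaacaagtgcta

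All but H2AC11, POLG and CCNI among them end in TGA. Their GC content ran from 36.7% in RAB3GAP1 and CCNI to 80.0% in SLC25A25.

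Peaks over a stop codon made up a similar small share of every list. There were 168 in V5 over input (2.54%, 2.19 to 2.95), 182 in FLAG over input (2.78%, 2.41 to 3.20), 75 in V5 over vector (2.50%, 2.00 to 3.12) and 55 in FLAG over vector (2.80%, 2.16 to 3.63), and the 4 intervals overlapped. Read per mRNA, 6.33% of the 2653 mRNAs with a V5 peak over input had their stop codon covered. This background was 7.05% of 2567 mRNAs for FLAG over input, 5.69% of 1318 for V5 over vector and 5.54% of 975 for FLAG over vector. Over all lists it was 8.5% of 3529 mRNAs, and 0.538% of them were covered in all 4 lists.

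Most members lay across the stop codon rather than at its edge. All 3 stop codon bases were inside 456 of the 480 peaks, 14 held 2 bases and 10 held 1 base. The 24 peaks just inside the rule, with 1 or 2 bases, had a median log2 enrichment of 3.80. Just outside it, 18 V5 and 18 FLAG peaks over input ended 1 to 5 nt short of a stop codon, with median log2 enrichments of 3.74 and 3.29. Over vector, 11 V5 and 6 FLAG peaks did so, with medians of 3.37 and 3.54. The rule therefore divides a continuous set of peaks.

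Histone H2AC11 carried the highest value of all stop codons in every list except V5 over vector, where POLG was highest (5.65). H2AC11 encodes a replication-dependent core histone H2A, and its mRNA is 1 exon with a 3′ UTR of 71 nt. The peak over its stop codon (chr6:27133462-27133464) had a log2 enrichment of 6.73 in V5 over input, 7.24 in FLAG over input, 5.09 in V5 over vector and 7.24 in FLAG over vector, with the −log10 p at the ceiling of 400 in each. This short mRNA held 16, 26, 17 and 26 peaks in these lists. In V5 over input the stop codon peak was the highest of the gene, whereas the gene's highest peaks in the other lists reached 7.67, 6.30 and 7.93. Both FLAG lists split the site into a peak of 14 nt that ended on the first stop codon base and one of 5 nt that began on the second. Histone genes of a family are near-identical in sequence, so how reads were divided between H2AC11 and its copies is uncertain.

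POLG and EEF1G were the other stop codons whose 4 values were all 4 or more. POLG encodes the catalytic subunit of the mitochondrial DNA polymerase. Its stop codon (chr15:89316751-89316753, TAG) had values of 5.04 in V5 over input, 6.51 in FLAG over input, 5.65 in V5 over vector and 4.66 in FLAG over vector. The site was short and nearly the same in every list: 29 nt were common to all 4 peaks, 12 of them before and 14 after the stop codon. EEF1G encodes the gamma subunit of the factor that brings aminoacyl-tRNAs to the ribosome, and is one of the translation factors examined below. Its stop codon (chr11:62559679-62559681, TGA, 3′ UTR of 83 nt) had values of 4.70, 5.39, 5.50 and 4.47 in the same order of lists, over 61 common nt.

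The other stop codons of this set were below 4 in at least 1 list. GDF15, a secreted cytokine of the TGF-β superfamily that cells make under stress, had values of 5.80, 4.60, 3.62 and 5.33 (V5 over input, FLAG over input, V5 over vector, FLAG over vector, the order used from here on). HMOX1, the heme oxygenase induced by oxidative stress, had 4.19, 4.33, 3.81 and 3.78, so its lists differed far less than those of GDF15. ATG7, an E1-like enzyme of autophagy, had 4.12, 3.51, 4.10 and 4.16. In each list the ATG7 peak over the stop codon was the only peak of that gene. SLC25A25, a mitochondrial carrier of ATP and phosphate, had 4.82, 3.60, 4.97 and 3.37, with both V5 values above both FLAG values. AHCY, which hydrolyses S-adenosylhomocysteine, had 4.00, 3.58, 4.07 and 3.36, again with both V5 values above both FLAG values. COX7A2, a subunit of cytochrome c oxidase, had 3.91, 3.39, 3.45 and 3.20, all under a log2 of 4.

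DCTN3 encodes a dynactin subunit, had values of 4.27, 3.84, 3.70 and 3.95, and held the longest stretch common to all 4 lists (136 nt). NARF, a protein that binds prelamin A, had 5.04 in V5 over input and 3.53, 3.73 and 3.20 in the other lists, so 1 list stood above the rest. RAB3GAP1, a subunit of the GTPase-activating complex of Rab3, had 4.23, 4.45, 3.06 and 3.67, and its common interval began on the last base of the stop codon. UCK1, a uridine-cytidine kinase, had 4.16, 4.12, 3.89 and 3.09. CCNI, cyclin I, had 4.36, 3.68, 3.85 and 3.30 with most of its common interval, 87 of 111 nt, before the stop codon. RPS28, a protein of the small ribosomal subunit, had 3.58, 4.25, 3.84 and 3.46. JAM3, a cell junction adhesion molecule, had 3.68, 4.28, 3.56 and 3.56, and stood out only in FLAG over input. TMEM18, a membrane protein of the nuclear envelope, had 4.21, 4.09, 3.26 and 3.47, and its peak had the same start and end in the 4 lists (chr2:669482-669587). PRELID1, which moves phosphatidic acid within mitochondria, had 3.93, 3.59, 3.21 and 3.04.

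**Figure D1:**
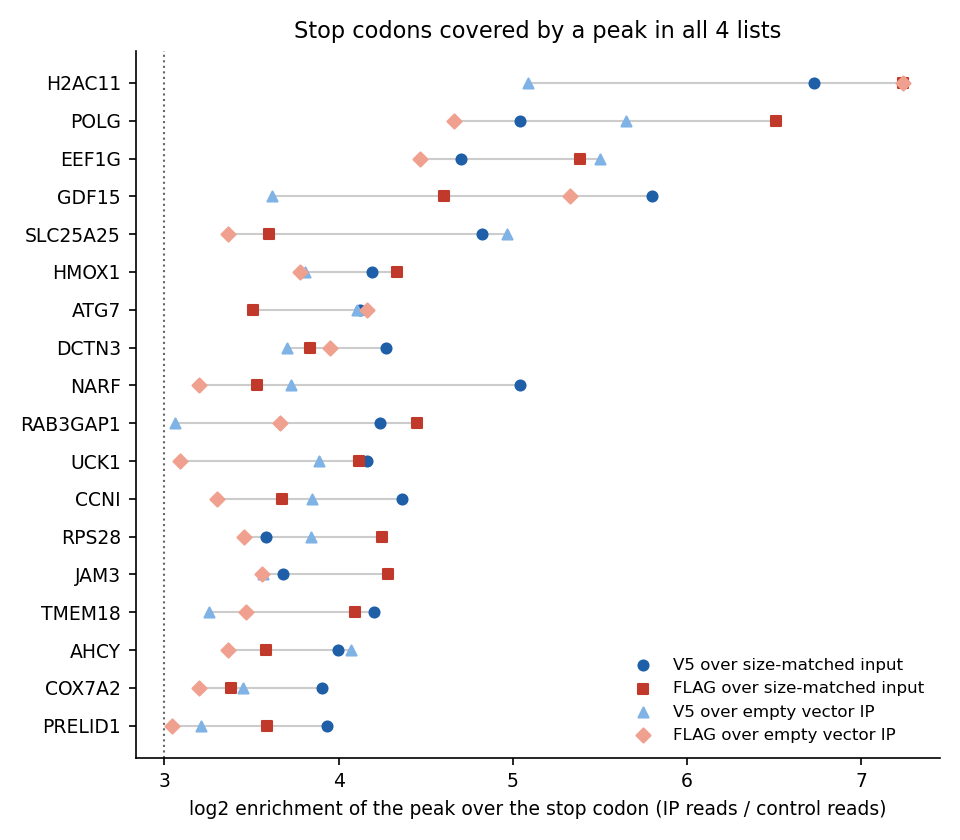
The x axis gives the log2 enrichment of the peak over the stop codon and each row is 1 of 18 of the 19 stop codons covered in all 4 lists, ordered by their mean, with 1 marker per list and the grey line joining the lowest and highest value. Only H2AC11, POLG and EEF1G have every marker at or above 4, and the dotted line marks the limit of 3 that the lists start from.

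The spread of the 4 values at a stop codon was mostly about 1 log2 unit. In 10 of the 19, the 4 values spanned less than 1 log2 unit, and the median span was 0.95. Their medians were 4.21 in V5 over input (3.58 to 6.73), 4.09 in FLAG over input (3.07 to 7.24), 3.84 in V5 over vector (3.06 to 5.65) and 3.47 in FLAG over vector (3.04 to 7.24). The highest of the 4 values came from V5 over input in 8 stop codons, FLAG over input in 5, V5 over vector in 4 and FLAG over vector in 2. These ranges overlapped widely, and with 1 pooled value per list no order between lists was tested.

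**Figure D2:**
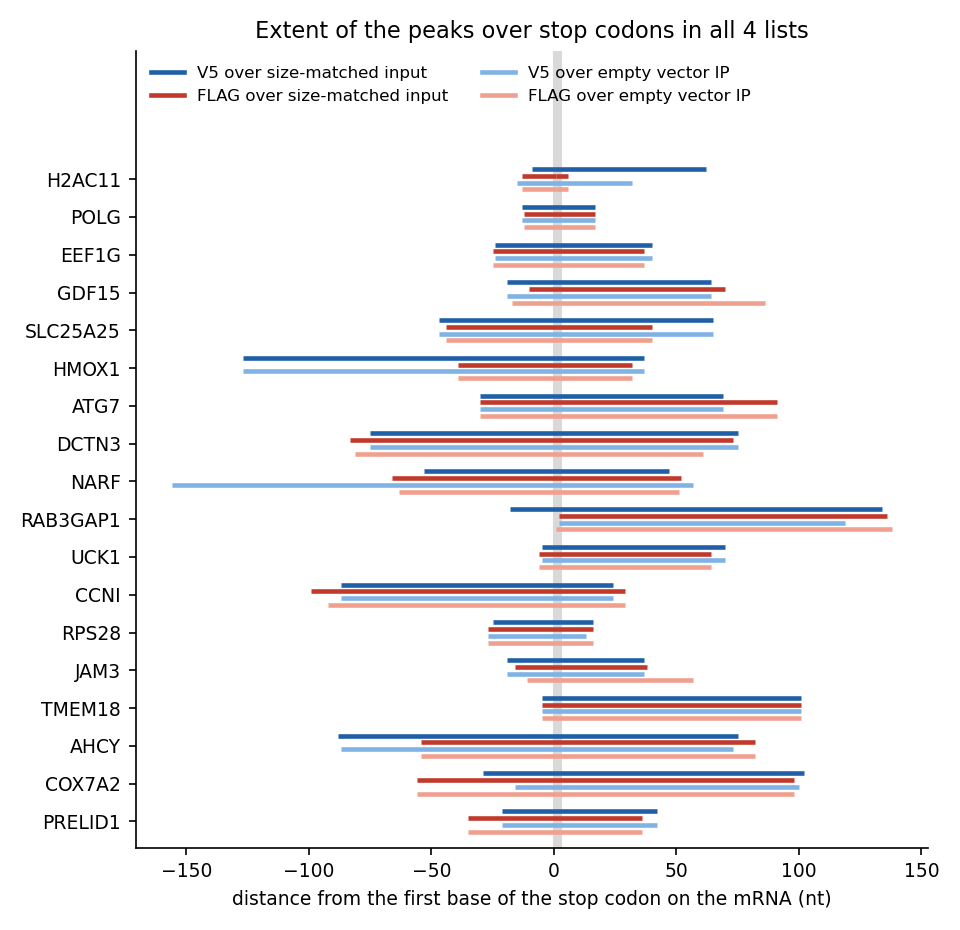
The x axis gives the distance in nt from the first base of the stop codon along the mRNA, the grey band marks the stop codon, and each bar is the extent of the peak of 1 list over 1 of 18 of the 19 stop codons. POLG shows the narrow site of 29 common nt, TMEM18 has equal ends in all lists, and CCNI lies mostly before the stop codon while RAB3GAP1 lies mostly after it.

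Most stop codons were covered in fewer lists. Of the 300, 187 (62.3%) were in 1 list, 67 (22.3%) in 2, 27 (9%) in 3 and 19 (6.33%) in 4. The largest groups were those in FLAG over input alone (83) and V5 over input alone (82), followed by 28 in both input lists and neither vector list. A further 20 were in V5 over vector alone and 2 in FLAG over vector alone. The stop codons with the highest values in single lists were not all in the set of 19. EVI5L, which holds a Rab GTPase-activating domain, had 3.96 in V5 over input, 6.71 in FLAG over input and 5.36 in FLAG over vector. No V5 peak over vector covered its stop codon, but a V5 peak lay within 50 nt of it. PLXNB2, a semaphorin receptor, had 5.74 and 4.86 in the FLAG lists and was covered in neither V5 list. Its mRNA held 10 and 11 V5 peaks elsewhere, and both V5 lists had a peak within 50 nt of the stop codon. IRAK1, a kinase of interleukin-1 signalling, had 3.72 and 4.86 over input and 5.41 in V5 over vector. TMEM106C had 4.30 in FLAG over input, 5.10 in V5 over vector and 3.95 in FLAG over vector. ATP6V1E1, a subunit of the vacuolar proton pump, had 5.25 in V5 over input, where it was the only peak of the gene, and was covered in no other list.

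The 5 highest of the 28 stop codons in both input lists and no vector list had moderate values. RELA, the p65 subunit of NF-kappa-B, had 4.11 in V5 and 4.20 in FLAG. CCM2, a scaffold protein of vascular cells, had 4.54 and 3.72. ADIPOR1, an adiponectin receptor, had 3.66 and 4.24. KMT2A, a histone H3 lysine 4 methyltransferase, had 4.07 and 3.83, and MAP7D1, a microtubule-associated protein, had 3.88 and 3.94. The V5 peak at MAP7D1 was 9 nt long and held 1 stop codon base.

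Both antibodies covered the same stop codon in fewer than 1 in 2 cases. Of the 168 stop codons covered in V5 over input, 71 (42.3%, 35.0 to 49.8) were also covered in FLAG over input, which was 39.2% of the 181 FLAG stop codons. Over vector, 22 were shared, 29.3% of the 75 V5 and 40.7% of the 54 FLAG stop codons. Where only V5 covered a stop codon over input (97), FLAG had a peak within 50 nt in 11, a peak elsewhere on the mRNA in 48 and no peak on the gene in 38. Where only FLAG covered it (110), the V5 counts were 24, 42 and 44. Counted as peaks, 49.4% of the V5 members overlapped a FLAG peak over input by at least 1 nt, beside 54% of all V5 peaks. In the other direction it was 53.8% of the FLAG members, beside 55.8% of all FLAG peaks. With at least 50% of the peak overlapped, these shares were 42.9% and 46.7% of the members, beside 48.8% and 50.7% of all peaks. Over vector, 32.0% of the V5 members overlapped a FLAG peak by at least 1 nt, beside 30.6% of all V5 peaks, and 49.1% of the FLAG members overlapped a V5 peak, beside 50.4%. The stop codon peaks were therefore close to all peaks of their lists in this respect. For peaks in the 5′ part of the 3′ UTR, up to its midpoint, the 1 nt shares were 57.4% (V5) and 56.7% (FLAG) over input. Over vector they were 46.5% and 46.1%. The V5 member intervals (41.9 to 56.9 over input, 22.5 to 43.2 over vector) ended below these shares, and the FLAG member intervals held theirs.

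At the 71 stop codons that both antibodies covered over input, the values were only loosely related. Across them Pearson's r was 0.49 and Spearman's rho 0.24, given as a description, since stop codons are not replicates and each list is cut at a log2 of 3. Without H2AC11, r was 0.30. FLAG was higher in 30 of the 71, and the median of FLAG minus V5 was -0.12. The median size of the difference was 0.54 and 9 stop codons differed by more than 1. The differences ran from -1.51 at NARF to 2.75 at EVI5L. Across the 22 stop codons covered over vector in both antibodies, r was 0.49, rho was 0.32 and FLAG was higher in 6.

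**Figure D3:**
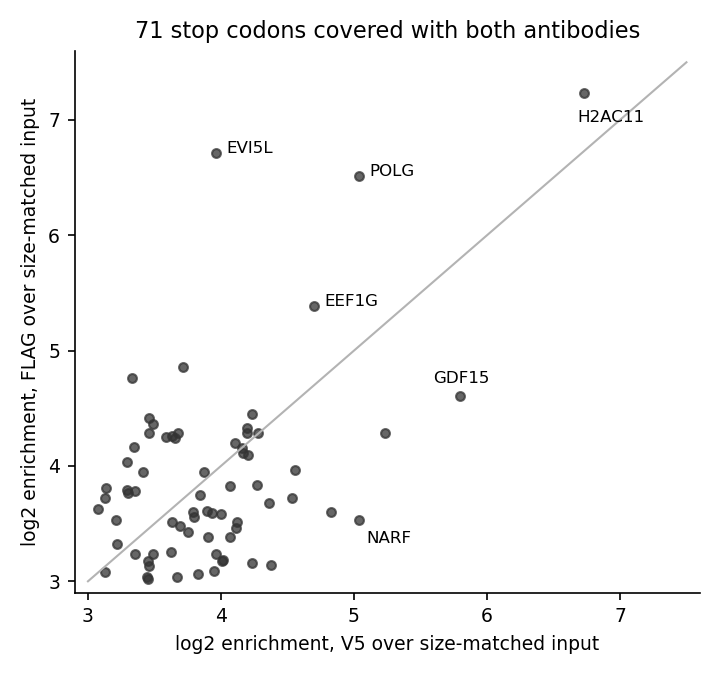
Each point is 1 of the 71 stop codons covered over input with both antibodies, with the log2 enrichment in V5 on the x axis and in FLAG on the y axis and the line of equal values. Most points lie between 3 and 5 with no tight relation, and H2AC11, at 6.73 and 7.24, is far from the rest.

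The edges of the peaks also differed between V5 and FLAG, which are separate constructs, transfections and libraries. Of 72 pairs of V5 and FLAG peaks over input at the same stop codon, 1 had the same start and end. The median difference was 12.5 nt at the 5′ end and 7 nt at the 3′ end. In contrast, 32 of 46 V5 pairs and 33 of 54 FLAG pairs had the same ends in the input and the vector list of an antibody. Those lists share their IP libraries.

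About 3 in 10 members over input were also found against the vector control. Of the V5 members over input, 28.6% (22.3 to 35.8) overlapped a V5 peak over vector, beside 36% of all peaks of the list, 39.6% of the CDS peaks and 29.8% of the peaks in the proximal part of the 3′ UTR (the 5′ part, up to its midpoint). In FLAG it was 31.3% (25.0 to 38.4), beside 27.9% of all peaks, 26.6% of CDS peaks and 30.03% of proximal 3′ UTR peaks. The V5 interval lay below the shares of all peaks and of CDS peaks and held that of the proximal 3′ UTR peaks, whereas the FLAG interval held all of these shares. Seen from the vector lists, 69.3% (58.2 to 78.6) of the V5 members overlapped a V5 peak over input, beside 76.6% of all V5 peaks over vector, 69.2% of CDS peaks and 88.4% of proximal 3′ UTR peaks. Of the 55 FLAG members over vector, 55 overlapped a FLAG peak over input (93.5% is the lower bound), beside 90.5% of all. In all, 22 stop codons were covered over vector and not over input, 20 of them in V5 over vector alone.

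The coverage of mRNA by peaks rose across the stop codon rather than peaking on it. For mRNAs with a peak in the list and at least 200 nt of CDS and of 3′ UTR, V5 peaks over input covered 149 of 2461 stop codons (6.05%, 5.18 to 7.07). Single positions in the 200 nt before the stop codon were covered in 117 to 148 mRNAs (mean 131.6), and those in the 200 nt after the stop codon in 152 to 205 (mean 190.3). FLAG peaks over input covered 166 of 2414 stop codons (6.88%, 5.93 to 7.96), between 94 to 160 before and 169 to 224 after. In both input lists the stop codon count thus lay above that of every CDS position, in V5 by 1 mRNA, and below that of every 3′ UTR position of these windows. This step was not seen in V5 over vector, where 66 of 1191 stop codons (5.54%) were covered, against 55 to 86 mRNAs at positions before and 45 to 76 after. In FLAG over vector it was 49 of 924 (5.30%), against 29 to 47 before and 38 to 58 after. Coverage of a stop codon was counted at its middle base here, so each count refers to a single position.

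**Figure D4:**
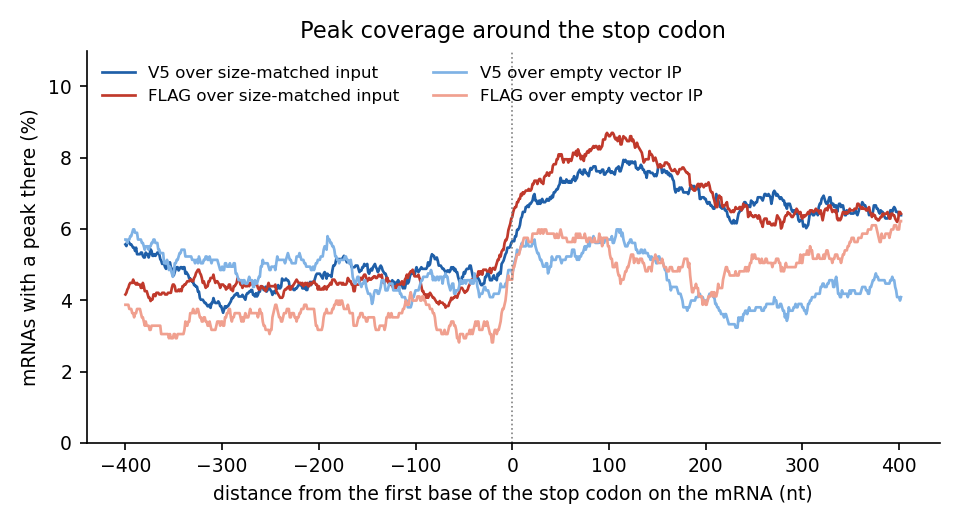
The x axis gives the distance in nt from the first base of the stop codon (dotted line) and the y axis the percentage of mRNAs with a peak at that position, for mRNAs with at least 400 nt on either side, with 1 line per list. Both input lists rise from the CDS into the 3′ UTR, through 5.66% (V5) and 6.48% (FLAG) at the stop codon, while V5 over vector is about level at 4.85% and FLAG over vector passes 4.93%.

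Peaks reached further into the 3′ UTR than into the CDS. A median member held 28 CDS bases (quartiles 11 and 53) and 58 bases of 3′ UTR (30 and 87). The CDS side was the longer one in 163 of 480 peaks (34.0%). It was so in 57 of 168 V5 and 55 of 182 FLAG peaks over input and in 16 of 55 FLAG peaks over vector, but in 35 of 75 V5 peaks over vector (46.7%, 35.8 to 57.8). In 23 peaks no CDS base and in 9 no UTR base was included. Only 10 members ran past the annotated exons of the canonical transcript.

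The share of peaks that were members rose with peak length. Members had a median length of 98.0 nt (quartiles 74.0 and 130.0). In V5 over input the median was 98.0 nt, against 60 nt for CDS peaks and 83.0 nt for proximal 3′ UTR peaks, and in FLAG over input it was 94.5, 54.0 and 82.0 nt. Among mRNA peaks of V5 over input, members made up 0.835% of those under 50 nt, 2.45% of those of 50 to 99 nt and 5.01% of those of 100 nt or more. In FLAG over input the shares were 0.888%, 2.89% and 5.31%. A long peak is more likely to span any fixed point, so the length of members follows in part from the rule and is not a result about the stop codon.

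The median enrichment of members was close to that of CDS peaks over input and below that of distal 3′ UTR peaks in each list. The median log2 enrichment in V5 over input was 3.56 for members, 3.56 for CDS peaks, 3.63 for proximal and 3.72 for distal 3′ UTR peaks. In FLAG over input it was 3.58, 3.55, 3.64 and 3.76. In both input lists and in FLAG over vector the 95% interval of the member median (3.45 to 3.66, 3.51 to 3.67 and 3.30 to 3.56, from order statistics) ended below that of the distal peaks (3.67 to 3.77, 3.71 to 3.81 and 3.60 to 3.78). In V5 over vector it was 3.56, 3.62, 3.59 and 3.67. FLAG over vector had the lowest median for members, 3.41, beside 3.55, 3.62 and 3.68. A log2 enrichment of at least 4 was reached by 40 of 168 members in V5 over input (23.8%, beside 23.9% of CDS, 28.0% of proximal and 33.0% of distal peaks) and by 47 of 182 in FLAG over input (25.8%, beside 23.8%, 30.03% and 37.2%). Over vector it was 16 of 75 in V5 (21.3%, beside 28.5%, 28.2% and 27.9%) and 9 of 55 in FLAG (16.4%, beside 22.2%, 28.8% and 32.5%). The −log10 p was at its ceiling in 2.50% of the members and 4.11% of all peaks.

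About 1 in 3 stop codon peaks over input were alone on their mRNA. The stop codon peak was the only peak of the gene in that list for 59 of 168 stop codons in V5 over input, 58 of 181 in FLAG over input, 30 of 75 in V5 over vector and 22 of 54 in FLAG over vector (35.1%, 32.0%, 40.0% and 40.7%). Of all mRNAs with a peak in the list, 50.1%, 49.5%, 55.7% and 59.9% held a single peak. An mRNA with more peaks has more chances to have its stop codon covered. Where the gene had several peaks, the stop codon peak was the highest in 36 of 109 (33.0%), 33 of 123 (26.8%), 11 of 45 (24.4%) and 6 of 32 (18.8%). The mean of 1 over the number of peaks, the share if every peak of a gene were as likely to be the highest, was 30.6%, 27.0%, 31.3% and 29.9%. The shares of the input lists were close to these figures. The median gap to the highest peak of the gene was 0.28, 0.43, 0.26 and 0.43 log2 units.

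TGA was the most frequent of the covered stop codons. It ended 178 of 300 (59.3%, 53.7 to 64.7), TAG ended 72 (24.0%) and TAA 50 (16.7%, 12.9 to 21.3). Among the 3229 mRNAs with a peak elsewhere only, the shares were 50.8%, 23.3% and 26.0%, and among all canonical stop codons 49.5%, 22.4% and 28.1%. Of the 19 stop codons in all 4 lists, 15 were TGA. H2AC11, with the highest enrichment, was the single TAA among them, and POLG, CCNI and PRELID1 had TAG. The order of the median enrichment differed between the lists: in V5 over input the median log2 was 3.59 at TGA, 3.42 at TAG and 3.94 at TAA, and in FLAG over input 3.61, 3.52 and 3.46.

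The covered stop codons also lay in sequence richer in G and C than other stop codons, but peaks elsewhere on the mRNA were GC-rich too. The median GC content of the 103 nt centred on the stop codon was 58.3% for covered ones, against 52.4% where the mRNA had a peak elsewhere only and 50.5% for all canonical stop codons. The difference was larger in the first 50 nt of the 3′ UTR (62.0% against 54.0%) than in the last 50 nt of the CDS (57.0% against 54.0%). The base right after the stop codon was G in 136 of 299 (45.5%, 39.9 to 51.2) against 33.1%, and A in 19.1% against 26.3%. GC content moved with the identity of the stop codon. At 60% GC or more, TGA was 65.2% of the covered (56.7 to 72.7) and 60.8% of the uncovered stop codons. From 50% to 60% GC it was 56.3% and 55.8%, and below 50% it was 50.0% (35.5 to 64.5) and 40.4%. Within each class the interval of the covered group included the share of the uncovered one. The median GC content of the peaks themselves in FLAG over input was 59.4% for members, 58.3% for CDS, 57.1% for proximal and 57.7% for distal 3′ UTR peaks. In V5 over vector it was 60.4%, 60.7%, 57.4% and 58.6%, so members were below CDS peaks. Members were above all other classes in V5 over input, and in FLAG over vector (59.2%, beside 56.5% of CDS peaks). Whether high GC content is particular to stop codon peaks was not tested.

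Covered stop codons had shorter coding sequences and 3′ UTRs than the other mRNAs with a peak. Against canonical mRNAs in general, their median 3′ UTR was longer and their median CDS slightly shorter. The median 3′ UTR was 1177 nt against 1670 nt on mRNAs with a peak elsewhere only, and the median CDS 1246.5 nt against 1479 nt. A 3′ UTR under 100 nt was found in 15 (5.00%) against 97 (3.00%), and a single-exon mRNA in 13 (4.33%) against 60 (1.86%). Among all canonical stop codons the median 3′ UTR was 1031 nt, the median CDS 1272 nt, a 3′ UTR under 100 nt made up 7.17% and a single-exon mRNA 5.64%. The distance from the last exon junction was similar, with medians of 149.5 and 142.0 nt.

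Among the gene lists examined, histones had the largest share of covered stop codons. Of 35 histone mRNAs with a peak in any list, the stop codon was covered in 9 (25.7%, 14.2 to 42.1), beside 8.5% of all mRNAs with a peak. These mRNAs are short, with a median of 508 nt against 3789 nt for all, and 30 of the 35 have a single exon. The 103 nt around the stop codon make up a median of 20.3% of a histone mRNA and 2.72% of any mRNA with a peak, and the part of length in the histone count was not tested. After H2AC11, the highest was the histone H4 gene H4C2, with 5.23 in V5 over input, 4.28 in FLAG over input and 3.69 in V5 over vector. It had no peak in FLAG over vector. As for H2AC11, reads shared with near-identical copies make the gene assignment uncertain.

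Mitochondrial ribosomal proteins, respiratory chain subunits and cytoplasmic translation genes were also among the members. Of 47 mRNAs of the mitochondrial ribosome and respiratory chain, 7 were covered (14.9%, 7.41 to 27.7), and these mRNAs too are short, with a median of 1458 nt. Beside COX7A2, they included MRPL12, a protein of the large mitochondrial ribosomal subunit (3.30 in V5 and 4.03 in FLAG over input), and MRPS11 of the small one (3.65 in V5 over vector). Cytoplasmic ribosomal proteins had 5 of 53 covered (9.43%, 4.10 to 20.3), among them RPS28 and RPS21 (3.73 in V5 over input). Of 44 translation factors and tRNA synthetases, 3 were covered (6.82%), EEF1G and the initiation factor subunit EIF4G1 (3.56 in V5 over input) being the highest. All of these intervals included the 8.5% of all mRNAs.

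Solute carriers had 6 of 67 covered (8.96%), among them SLC25A25. The proteasome and ubiquitin system had 6 of 67 (8.96%), among them PSMD13, a subunit of the regulatory particle (3.49 in V5 over input), and PSMG3, a chaperone of proteasome assembly (3.45 in V5 over vector). Heat shock proteins and chaperones had 3 of 35 (8.57%). The cochaperone BAG1 had 3.46 in V5 over input, 4.41 in FLAG over input and 3.42 in FLAG over vector. The Hsp40 protein DNAJA1 was covered in V5 alone, with 4.23 over input and 3.29 over vector. These 3 groups were at the background share.

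The counts of the other groups were small, and their intervals included the 8.5% of all mRNAs with a peak. Zinc finger genes of the ZNF family had 3 of 64 (4.69%, 1.61 to 12.9), including ZNF236 (4.54 in V5 over input) and ZNF414 (4.08 in FLAG over input). Splicing factors and RNA helicases had 1 of 43 (2.33%, 0.412 to 12.1), the splicing factor SF3B3 (3.37 in FLAG over input). None of 10 tubulin and kinesin mRNAs with a peak was covered (upper Wilson bound 27.8%). Of 9 mRNAs for termination and mRNA surveillance, 1 was covered (11.1%, 1.99 to 43.5), SMG5 of nonsense-mediated decay (3.73 in V5 over vector). Of 10 selenoprotein mRNAs, in which an internal TGA is read as selenocysteine, 2 were covered at their final stop codon (95% Wilson interval 5.67 to 51.0%), SELENON (TAG, 3.57) and TXNRD1 (TAA, 3.06), both in FLAG over input.

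Among CDIP1, ATF3, CDKN1A, AEN, ACTB and GAPDH, 1 had its stop codon covered. AEN, a nuclease that promotes apoptosis, had 3.49 in V5 over input, 4.36 in FLAG over input and 3.57 in FLAG over vector, while its nearest V5 peak over vector lay upstream, at position -131 nt from the stop codon. At CDIP1, an apoptosis gene, the nearest peaks lay at -77 and -80 nt, in V5 and FLAG over input. At ATF3, a stress-induced transcription factor, the nearest peaks began at 57 nt (V5) and 77 nt (FLAG) after the stop codon. CDKN1A, the cell cycle inhibitor p21, had its nearest peaks over input at -99 (V5) and -242 (FLAG). The controls ACTB and GAPDH had no peak over the stop codon: ACTB had none at all, and GAPDH had 1 FLAG peak over input at -1046.

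The GU-loop:5nt-stem was found in nearly 1 in 2 members, and its share rose with peak length as it did elsewhere on the mRNA. It was called where a GU and the 5 bases after it lay inside the peak and a local folding model gave the U a pairing probability below 0.7 and the 5 bases one above 0.5 each. It was found in 226 of 480 members (47.1%, 42.7 to 51.6), against 32.0% of CDS peaks, 48.0% of proximal and 50.4% of distal 3′ UTR peaks. By length, members under 50 nt had it in 11.6% (CDS peaks 13.6%, proximal 20.4%), those of 50 to 99 nt in 39.8% (40.9% and 46.6%) and those of 100 to 149 nt in 60.4% (56.0% and 61.6%). At 150 nt or more it was 59.7% of 72 members (48.2 to 70.3), below the 73.6% of CDS and 74.8% of proximal 3′ UTR peaks.

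**Figure D5:**
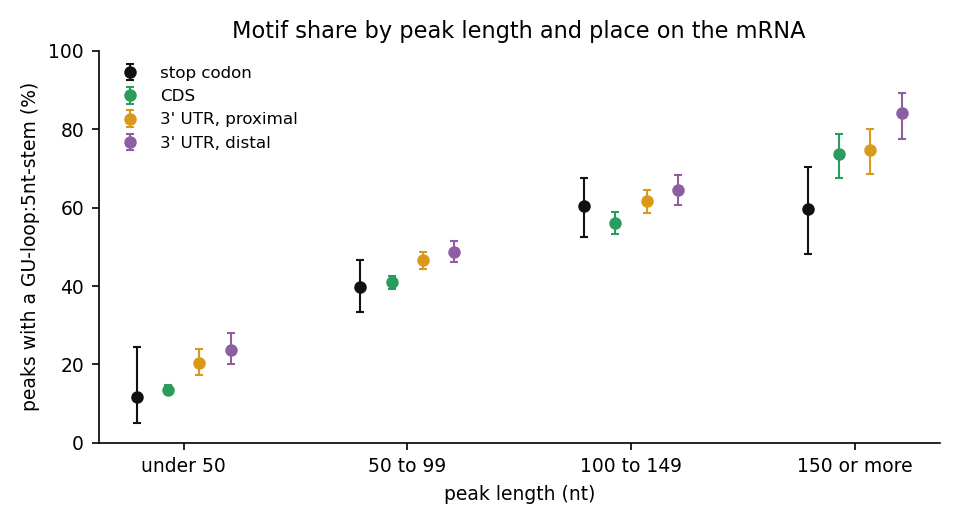
The x axis gives 4 classes of peak length in nt and the y axis the percentage of peaks with a GU-loop:5nt-stem, by place on the mRNA, with 95% Wilson intervals as bars. The lists are pooled, so the bars are too narrow where a site is in several lists. Members lie close to the CDS peaks up to 149 nt and below both 3′ UTR classes in every length class. At 50 to 99 nt the distal share (48.8%) is above the member interval (33.4 to 46.6). At 150 nt or more, members (59.7%) lie below all other classes.

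With the spliced mRNA in place of the genome around it, 230 members had the motif. In 92 of these (40.0%, 33.9 to 46.4) the first GU that fit, read from the 5′ end, lay before the stop codon. Later ones were not counted, so a peak with a motif on both sides counts as before it. The median member held 28 CDS and 58 3′ UTR bases. With genomic flanks, 12 of the 19 stop codons in all 4 lists (63.2%, 41.0 to 80.9) had a motif in at least 1 peak, beside 144 of all 300 (48.0%). GDF15, HMOX1 and ATG7 had it in 4 of 4 peaks each. H2AC11 had it in 1 of 6 peaks, and in none with the spliced mRNA. Its peaks of 5 nt in the FLAG lists were too short to hold it. POLG and EEF1G, next after H2AC11 among the 19 by the mean over the 4 lists, had it in 0 of 4 peaks each. The POLG peaks, of 29 to 30 nt, held no GU, so the motif could not be called there. Members with the motif were not the more enriched ones: the medians with and without it were 3.49 and 3.57 in V5 over input, 3.52 and 3.61 in FLAG over input, 3.48 and 3.69 in V5 over vector, and 3.35 and 3.55 in FLAG over vector. Peak length was not held equal in this comparison. Over all lists the median log2 enrichment was 3.94 for members under 50 nt, which rarely held the motif. It was 3.57 at 50 to 99 nt, 3.46 at 100 to 149 nt and 3.57 at 150 nt or more. The part of length in the difference was not tested.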

How the data were processed

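The members and gene lists were chosen with earlier results of these data known. According to the methods, the authors aligned reads to hg38 with the eCLIP pipeline 0.4.0 and combined the replicates of a comparison through the Irreproducible Discovery Rate, and the submitters' processing notes name UMI-tools 1.0.0, cutadapt 1.14, STAR 2.4.0i and SAMtools 1.6. The deposited values are the log2 of the geometric mean ratio of IP to control reads and the −log10 p-value, with the authors' filters on both already applied. How reads were scaled for library size is not given in the sources used here. Groups came from the sample labels.

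Peaks were matched by strand to 19638 distinct stop codons of GENCODE version 44 (Ensembl 110) canonical transcripts, and genes that share a stop codon were counted once. The hg38 letters of the stop codon equalled the transcript's at 480 of 480 peaks. Peaks that touch were not merged. A peak outside the stop codon was assigned to the CDS before the 3′ UTR. Folding used RNAplfold of ViennaRNA 2.7.2 (window 70, span 70, u = 1) with 50 nt of genomic flank. Genes named in the text are the stop codons in all 4 lists, the 5 highest of each list, the 5 highest in both input lists without a vector peak, the 2 highest of each gene list and a set of genes around those the study names (CDIP1, ATF3, CDKN1A, AEN, ACTB and GAPDH). Of these, 3 genes are not reported here, 1 of them a stop codon in all 4 lists that the figures leave out. Shares have Wilson intervals, and no test over regions was run, since regions are not replicates. Alternatives changed the overlap, the annotation, merging, the enrichment limit, the flanks and the folding limits. Scripts used scipy 1.17.1, pandas 2.3.3 and numpy 2.4.6 under Python 3.11.15 and were tested on simulated data.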

Additional observations from a re-analysis of the deposited data

How the results depend on the processing

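Of 62 recomputed values, 50 stayed within their limits. With a log2 enrichment of at least 4, the stop codon peaks fell to 40 and 47 over input (V5, FLAG) and 16 and 9 over vector, the stop codons in all 4 lists to 3, and the shares of stop codons common to both antibodies over input to 32.5% of V5 and 28.3% of FLAG. With a peak within 50 nt in place of the stop codon itself, 38 stop codons were in all 4 lists. With 50% of the peak overlapped, 46.7% of the FLAG members over input overlapped a V5 peak over input. This is a share of peaks (53.8% at 1 nt), whereas the 39.2% it was set against is a share of stop codons. TGA was 78.9% of the stop codons in all 4 lists. The GU-loop:5nt-stem share was 29.0% with the U under 0.5 and 14.0% with stems over 0.7, so its level depends on these limits. No paired analysis was possible because the lists hold 1 value per peak that pools both replicates, and no replicate could be left out for the same reason. An enrichment limit leaves each list incomplete below it, and library depth is unknown.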
